A study of Rattus norvegicus with 23 samples.

Results

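The two-pore domain and the small-conductance potassium channels were followed through the rat heart and its great vessels. The 7 genes were 4 genes of K2P (two-pore domain) channels, Kcnk1, Kcnk2, Kcnk3 and Kcnk6, and 3 of SK (small-conductance calcium-activated) channels, Kcnn1, Kcnn2 and Kcnn3. They were chosen by name, and every array probe whose transcript accession belongs to 1 of them was taken, 14 probes in all, out of 16544 genes with a named probe. All 7 genes passed the filter on dim genes. Hearts and vessels were taken from 12 male Wistar rats, untreated and with no altered gene, at an age of 8 to 11 weeks. There were 4 arrays each of left atrium (LA, cut next to the pulmonary vein), left ventricle (LV), sinoatrial node region (SA), pulmonary vein (PV) and pulmonary artery (PA), and 3 arrays of right ventricle (RV, its free wall). An SA sample was the pooled tissue of 2 rats, and the methods describe cutting each LV into several pieces that served as samples. The labels do not say which samples share a rat, so the p-values measure the spread between these samples, which may be partly technical.

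Channels of the K2P family carry background, or leak, potassium current, which holds the resting potential of a cell near the potassium equilibrium. Each subunit has a pair of pore domains, and a pair of subunits makes a channel. Kcnk1 encodes TWIK-1, Kcnk2 encodes TREK-1, which opens to membrane stretch, arachidonic acid and warmth, Kcnk3 encodes TASK-1, which closes in acid, and Kcnk6 encodes TWIK-2. In heart muscle TREK-1 and TASK-1 are the K2P channels most often described, and TASK-1 is known for its role in atrial muscle and in pulmonary artery smooth muscle. SK channels open when calcium binds to calmodulin attached to the channel, and so couple the calcium transient to repolarization. Kcnn1, Kcnn2 and Kcnn3 encode SK1, SK2 and SK3, which are known mainly from atrial myocytes, neurons and, for SK3, endothelium.

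Of the 7 genes, the start sites of Kcnk2 (gene region on the minus strand) and Kcnn3 (plus strand) are shown. These genes gave opposite differences between LA, SA and PV and the ventricles. The RefSeq table of build GRCr8 held start sites for 3 of the 7 genes, Kcnk2, Kcnn2 and Kcnn3, and listed 2 for Kcnk2. That of Kcnn2 is not shown. Each line reads 5′ to 3′ on the strand of the gene, from 250 bases before to 50 bases after the start, with the 50 bases after the start in capitals.
Kcnk2, upstream start, chr13:103494637-103494936: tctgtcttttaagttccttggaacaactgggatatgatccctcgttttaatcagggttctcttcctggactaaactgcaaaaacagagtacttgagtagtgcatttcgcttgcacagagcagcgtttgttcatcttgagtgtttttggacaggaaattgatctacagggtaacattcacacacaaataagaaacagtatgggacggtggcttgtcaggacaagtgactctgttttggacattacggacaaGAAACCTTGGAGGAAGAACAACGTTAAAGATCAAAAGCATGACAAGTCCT
Kcnk2, downstream start, chr13:103438593-103438892: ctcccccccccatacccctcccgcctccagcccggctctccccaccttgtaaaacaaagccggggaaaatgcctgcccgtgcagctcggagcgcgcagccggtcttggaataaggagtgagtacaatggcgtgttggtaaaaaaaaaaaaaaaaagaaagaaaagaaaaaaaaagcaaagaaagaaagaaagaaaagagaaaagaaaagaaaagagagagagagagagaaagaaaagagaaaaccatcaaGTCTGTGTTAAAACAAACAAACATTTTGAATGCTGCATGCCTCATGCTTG
Kcnn3, chr2:177234090-177234389: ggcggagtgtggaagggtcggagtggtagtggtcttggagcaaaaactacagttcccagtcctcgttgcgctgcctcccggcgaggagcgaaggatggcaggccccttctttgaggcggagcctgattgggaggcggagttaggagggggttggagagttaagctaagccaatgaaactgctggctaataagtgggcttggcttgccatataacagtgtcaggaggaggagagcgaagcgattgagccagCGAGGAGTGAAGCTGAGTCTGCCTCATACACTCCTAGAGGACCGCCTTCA
The GC content of the Kcnk2 windows was 41.7% and 44.3%, that of the Kcnn3 window 57%, and the median over 33469 windows of 300 bases was 51.7%. Both strands of the 3 windows were searched for 4 motifs of cardiac transcription factors, with overlaps allowed. For the GATA factors the letters AGATAA were searched. For the T-box factors they were AGGTGT. For NKX2-5 they were TNAAGTG, and for MEF2 they were CTA and TAG with any 4 bases between them, a looser pattern than the A/T-rich motif of that factor. None of the 3 windows held any of them, while 11.6%, 13.6%, 11.5% and 3.84% of all windows did, in that order. This says only that these letters are not in these windows.

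The signal of a gene is given as log2(signal + 1), where the signal is the authors' normalized intensity of the highest probe of the gene on that array. Probes bind with unequal strength, so a level can be compared between regions but not between genes. A gene was called different where limma's adjusted p was below 0.05, with Benjamini-Hochberg adjustment over 16089 genes. An array spot is well above background where the scanner software judged it brighter than its surroundings, and this held for 58.6% to 79.8% of the probes of an array, with no saturated probe. Arrays in row 1 of a slide were brighter in this sense (76.9% ± 1.98, SD, n = 11) than arrays in row 2 (63.0% ± 3.55, SD, n = 12). LA had 3 of its 4 arrays in row 1, while SA and PV had 1 of 4 each. Slides 1, 2 and 3 held 7, 8 and 8 arrays, and slide 1 held no RV. In whole tissue, fewer cells of a type and less RNA per cell cannot be told apart.

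Of the 7 genes, 6 differed among the 6 regions (limma F-test), all but Kcnk3, beside 64.4% of all genes tested. Between the mean of LA, SA and PV (here supraventricular) and the mean of LV and RV, 3 of 7 differed, beside 40.9% of all genes. Kcnk1 and Kcnk2 were higher in the supraventricular regions, as were 18.6% of all genes, and Kcnn3 was higher in the ventricles, as were 22.3%. When PA was set against the averaged 5 other regions, 6 of 7 differed, beside 59.1% of all genes. Kcnk1, Kcnk2, Kcnn1 and Kcnn2 were lower in PA, as were 27.7% of all genes, and Kcnk3 and Kcnk6 were higher, as were 31.4%. The median difference over the 7 genes was 0.33 for the first comparison and -0.88 for the second, and over all genes it was -0.08 and 0.05. The 2 comparisons share the 19 arrays outside PA.

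**Figure D1:**
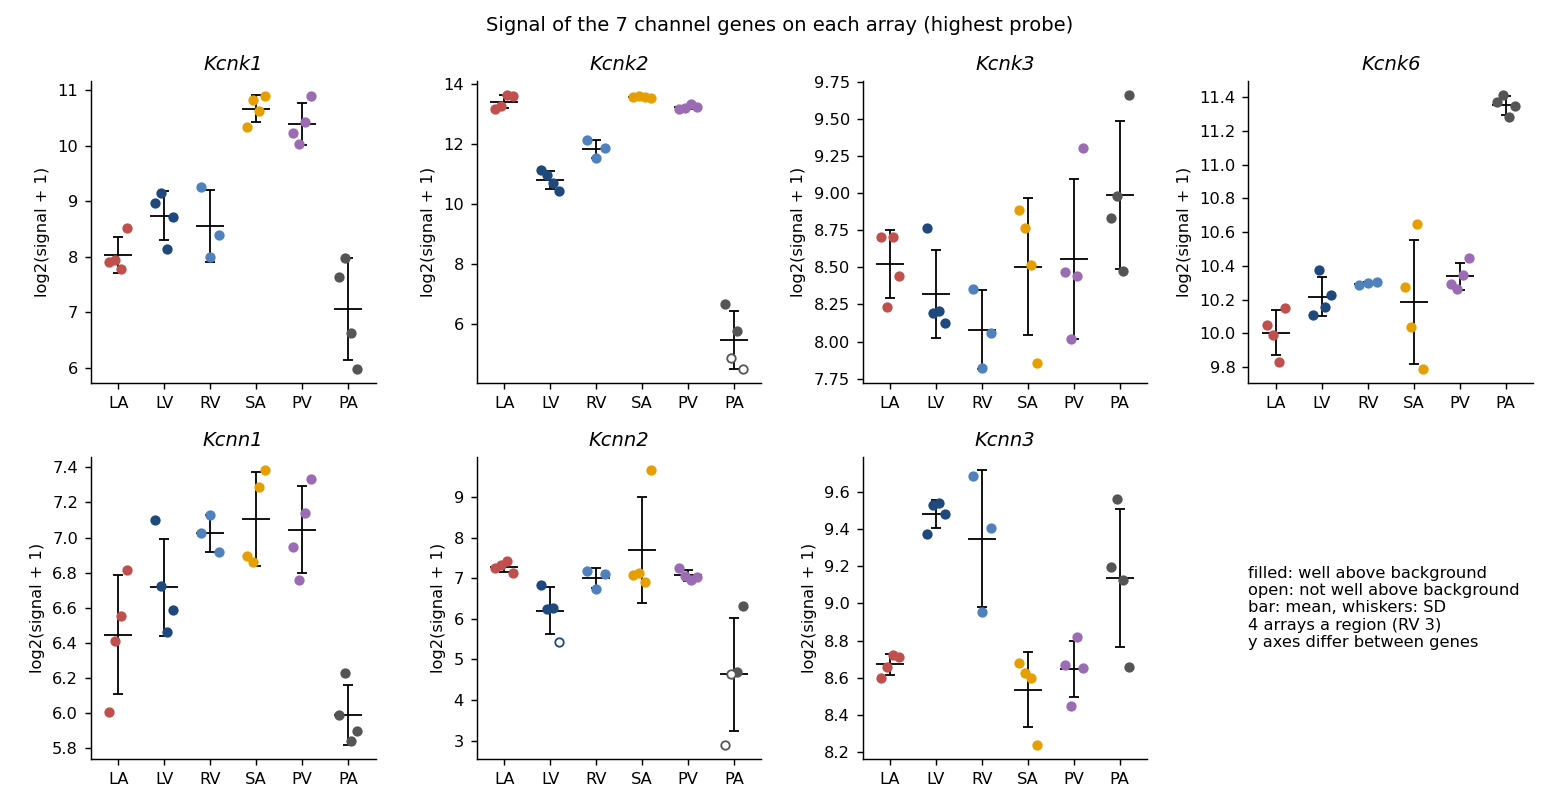
Each panel plots log2(signal + 1) of 1 gene (y axis, with its own range) on each of the 23 arrays by region (x axis), with the mean and SD as a bar with whiskers. Kcnk2 sits at or above 13.17 on all arrays of LA, SA and PV and at or below 6.68 on all arrays of PA, and open points are arrays on which no probe was well above background.

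Over the 15 pairs of regions, 51 of 105 tests of a gene in a pair were called. The 5 pairs with PA held 30 of these calls out of 35 tests, and the 10 pairs without PA held 21 of 70. The pairs share arrays and are not independent. For LA, SA, PV, LV and RV against PA, 6 of the 7 genes differed in each pair, beside 52.1%, 53.6%, 53.4%, 55.8% and 53.6% of all genes. LA against LV gave 2 (beside 33.8% of all genes), and LA against RV gave 3 (27.2%). In LV against SA and LV against PV, 3 genes differed (26.2% and 31.6%), and also in RV against SA and RV against PV (21.7% and 25.9%). Those were Kcnk1, Kcnk2 and Kcnn3 in each of the 4 pairs. In LA against SA and in LA against PV, the genes called were Kcnk1 and Kcnn1 (15.3% and 13.5% of all genes). No gene of the 7 was called between LV and RV (0.522%) or between SA and PV (3.49%). By pair, Kcnk1 and Kcnk2 were each called in 11 of 15 pairs, Kcnn3 in 9, Kcnn1 in 8, Kcnk6 and Kcnn2 in 5 each, and Kcnk3 in 2.

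**Figure D2:**
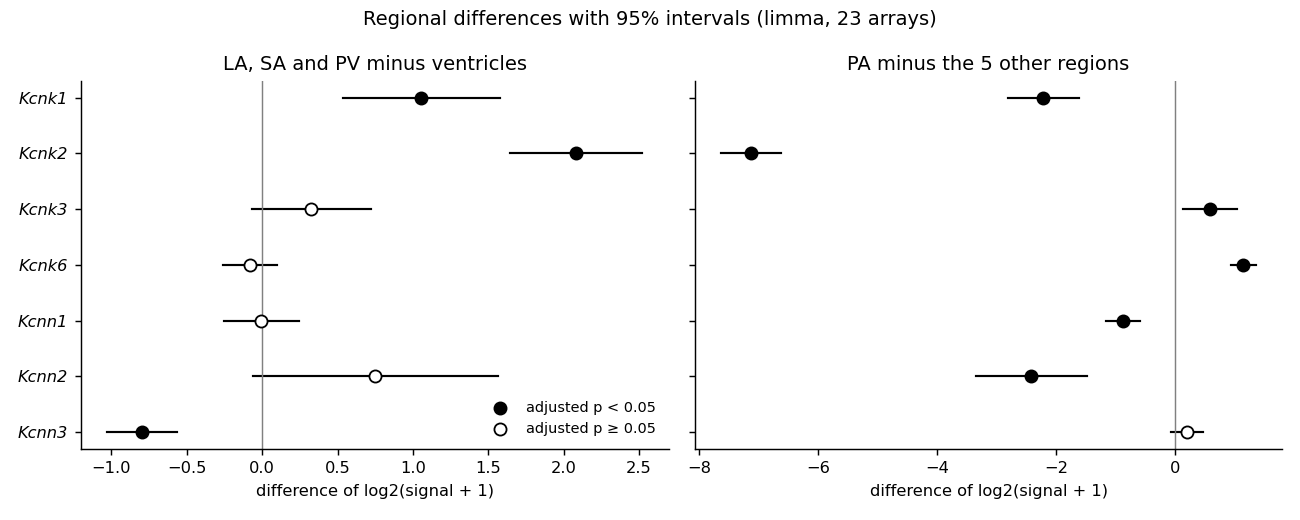
For each gene (y axis) the difference of log2(signal + 1) (x axis) is plotted with its 95% interval, supraventricular regions minus ventricles on the left and PA minus the 5 other regions on the right, with filled points where the adjusted p was below 0.05. The widest difference is that of Kcnk2 in PA at -7.13, and Kcnn3 is the gene that lies below 0 on the left with an interval that leaves out 0.

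Kcnk2 (TREK-1) had the widest range of the 7 genes, 8.12 between its highest and lowest regional mean, which placed it at percentile 99.8 of the genes tested (F-test over the 6 regions, adjusted p = 5.97e-14). Its signals on the SA arrays were 13.59, 13.59, 13.56 and 13.54. The LA arrays read 13.19, 13.26, 13.64 and 13.59, and the PV arrays 13.17, 13.19, 13.34 and 13.24. The 3 regions overlapped but for SA and PV, whose arrays did not, and none of their pairs was called (adjusted p = 0.675 for SA and PV). These tests use a single spread for the gene over all 6 regions. The SD was 0.024 in SA and 0.073 in PV, but 0.98 in PA. RV read 12.14, 11.55 and 11.86, LV read 11.13, 10.97, 10.70 and 10.43, and PA read 6.68, 4.87, 5.77 and 4.49. Every array of LA, SA and PV was above every array of the ventricles, every RV array was above every LV array, and every PA array was below all of these.

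The supraventricular regions exceeded the ventricles by 2.08 ± 0.21 (SE), or 4.23-fold, with an adjusted p of 1.37e-07. Within slides 1, 2 and 3 the difference was 3.04, 2.06 and 2.04, and within array rows 1 and 2 it was 1.96 and 2.23. LA exceeded LV by 2.61 ± 0.31 (adjusted p = 1.88e-06) and RV by 1.57 ± 0.33 (adjusted p = 0.00142). LV minus RV was -1.04 ± 0.33, a 2.06-fold difference with an adjusted p of 0.199 and a 95% interval from -1.74 to -0.34. That difference did not pass the test on all arrays. It did without PA replicate 1, an array outside this pair that enters the shared spread (still -1.04, adjusted p = 0.0441). It also passed after normexp background correction, another way of subtracting the surroundings of a spot (-1.07, adjusted p = 0.000855).

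PA minus the other regions was -7.13 ± 0.24 for Kcnk2 (adjusted p = 1.55e-15). On 2 of the 4 PA arrays the highest probe was A_64_P114986, while it was A_43_P13418 on the other 2 and on all 19 arrays outside PA, so the difference partly sets 1 probe against another. A Kcnk2 probe was well above background on 2 of the 4 PA arrays, and with the other arrays set to the lowest signal that is well above background the difference was -6.79. The difference was -5.53 (46.1-fold) after normexp, -5.60 (48.6-fold) with the mean of both probes and -7.90 (238-fold) with the probe of highest mean, so no single fold is given. Within slides it was -8.22, -6.74 and -6.91, and within array rows 1 and 2 it was -6.41 and -7.79. PA replicate 1, with the highest Kcnk2 signal of PA (6.68), was also the PA array with the highest summed signal of 6 atrial myocyte markers (39051, against 3336 to 5253 on the other PA arrays).

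Both probes of Kcnk2 differed in the same directions. The probe for NM_172042, A_43_P13418, gave 2.08 ± 0.29 for supraventricular minus ventricular and -7.90 ± 0.33 for PA minus others. The probe for NM_172041, A_64_P114986, gave 2.73 ± 0.26 and -3.31 ± 0.30. Each probe was well above background on 1 of the 4 PA arrays, so that in both PA differences 3 of the 4 PA signals were not measured above background. All 4 differences had adjusted p-values below 0.05 among 43522 probes, of which 29.8% were called in the first comparison and 50.1% in the second. The atrial myocyte markers (Myl7, Mybphl, Sln, Myl4, Nppa and Bmp10), all 6 on the array, were highest as a sum where Kcnk2 was high. For 4 of the 6 (Myl7, Mybphl, Sln and Nppa) the means of LA, SA and PV were all above those of LV, RV and PA, and for Myl4 and Bmp10 they were not. The summed signal was 1286610 to 1759960 on the arrays of LA, SA and PV, 298901 to 423235 in LV, 237650 to 251536 in RV and 3336 to 39051 in PA, with Myl7 the brightest in LA, SA, PV and PA and Myl4 in LV and RV. Between LV and RV the order was the other way, with the sum higher in LV and Kcnk2 higher in RV. The part of cell composition in the Kcnk2 result was not tested.

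Kcnk1 (TWIK-1) separated SA and PV from LA. SA read 10.34, 10.82, 10.63 and 10.89 and PV read 10.22, 10.03, 10.43 and 10.90. LA read 7.91, 7.93, 7.77 and 8.51, LV read 8.97, 9.14, 8.14 and 8.71, RV read 9.26, 7.98 and 8.39, and PA read 7.64, 7.98, 6.63 and 5.97. No SA or PV array overlapped with any array of LA, LV, RV or PA, and SA and PV overlapped each other. LA minus SA was -2.64 ± 0.37 (6.23-fold, adjusted p = 7.43e-05) and LA minus PV was -2.36 ± 0.37 (5.15-fold, adjusted p = 0.000217). LA minus LV was -0.71 ± 0.37 and did not pass the test (adjusted p = 0.151). The supraventricular mean was above the ventricular mean by 1.06 ± 0.25 (adjusted p = 0.00186), and this mean joins LA, where the gene was low, with SA and PV. It was 0.78, 1.52 and 1.13 within slides 1, 2 and 3, and 0.95 and 1.23 within array rows 1 and 2. LA minus SA was -2.76 and -2.68 within the rows, and LA minus PV was -1.97 and -2.58, with fewer arrays and no call (adjusted p = 0.0813 to 0.217), and both calls held with the row as a block (adjusted p = 0.000206 and 0.000603). PA minus the others was -2.22 ± 0.28 (4.66-fold, adjusted p = 9.96e-07), and it was -2.12 and -2.22 within the rows.

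The 3 probes of Kcnk1 did not have the same pattern, and the highest probe was not the same one in every region. Probe A_64_P036890, for NM_021688, was the highest on all 8 arrays of SA and PV and on 1 LA array. Probe A_44_P1115567, for the predicted transcript XM_006255820, was the highest on the other 14 arrays. The gene-level differences between SA or PV and the other regions therefore set 1 probe against another, and the values of each probe on its own follow. On A_64_P036890 alone the regional means ± SD were 10.67 ± 0.25 in SA, 10.39 ± 0.37 in PV, 7.40 ± 0.36 in LA, 6.90 ± 0.35 in LV, 5.86 ± 0.14 in RV and 3.80 ± 0.86 in PA, a region in which 1 of its 4 spots was well above background. This probe gave 3.11 ± 0.21 for supraventricular minus ventricular (adjusted p = 1.00e-09) and -4.44 ± 0.25 for PA minus others (adjusted p = 5.03e-12). LA minus SA was -3.27 ± 0.32 on it (adjusted p = 2.44e-06) and LA minus PV -3.00 ± 0.32 (adjusted p = 6.79e-06), beside 8.43% and 7.46% of all probes.

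The second probe for NM_021688, A_44_P102628, was dim and was also highest in SA and PV. It read 6.33 to 6.77 in SA and 6.09 to 6.73 in PV, and 3.02 to 4.81 on the arrays of all other regions. It was not well above background on any array of RV or PA, so that SA was at least 3.63-fold above RV and at least 3.53-fold above PA, taking the lowest signal well above background of each array as the limit. The probe for XM_006255820 did not follow this. It read 7.98 to 9.26 in the ventricles, 7.94 to 9.06 in SA, 7.86 to 8.46 in PV, 6.19 to 8.51 in LA and 5.97 to 7.98 in PA. Its supraventricular minus ventricular difference was -0.62 ± 0.31 (adjusted p = 0.157), and its PA minus others difference was -1.22 ± 0.36 (adjusted p = 0.00789).

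Marker lists with higher sums where Kcnk1 was high included those of erythroid cells, autonomic neurons and smooth muscle, and single adipocyte markers were also higher there. The 3 erythroid markers summed to 72528 to 143413 on the arrays of SA and PV and to 7730 to 44705 in LA, LV and RV, and all 3 had higher means in both SA and PV. In PA, where Kcnk1 was lowest, the erythroid sum was 17305 to 123356. The 6 autonomic neuron markers on the array summed to 1318 to 20540 in SA and PV, 3144 to 7346 in PA and 648 to 1280 in LA, LV and RV, with higher means in both SA and PV for 2 of the 6 (Stmn2 and Npy). Of the 4 adipocyte markers on the array 2 had higher means in SA, PV and PA than in LA, LV and RV. Ucp1, the brown fat uncoupling protein, had mean log2 signals of 12.18, 10.31 and 12.51 in SA, PV and PA and 5.44, 4.24 and 4.32 in LA, LV and RV, and Adipoq, the adiponectin gene, 9.68, 10.05 and 11.29 against 7.90, 3.87 and 5.85. Cidea and Fabp4 did not have this pattern, and the sum of the 4 was 12313 to 34521 over all arrays. The 7 smooth muscle markers summed to 106458 to 164718 in SA and PV, 63205 to 105533 in LA, LV and RV and 760607 to 894158 in PA. Means of Myh11, Cnn1, Acta2, Tagln and Actg2 were higher in both SA and PV than in LA, LV and RV. For Smtn and Des this was not so. The part of these cells in the Kcnk1 result was not tested.

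**Figure D3:**
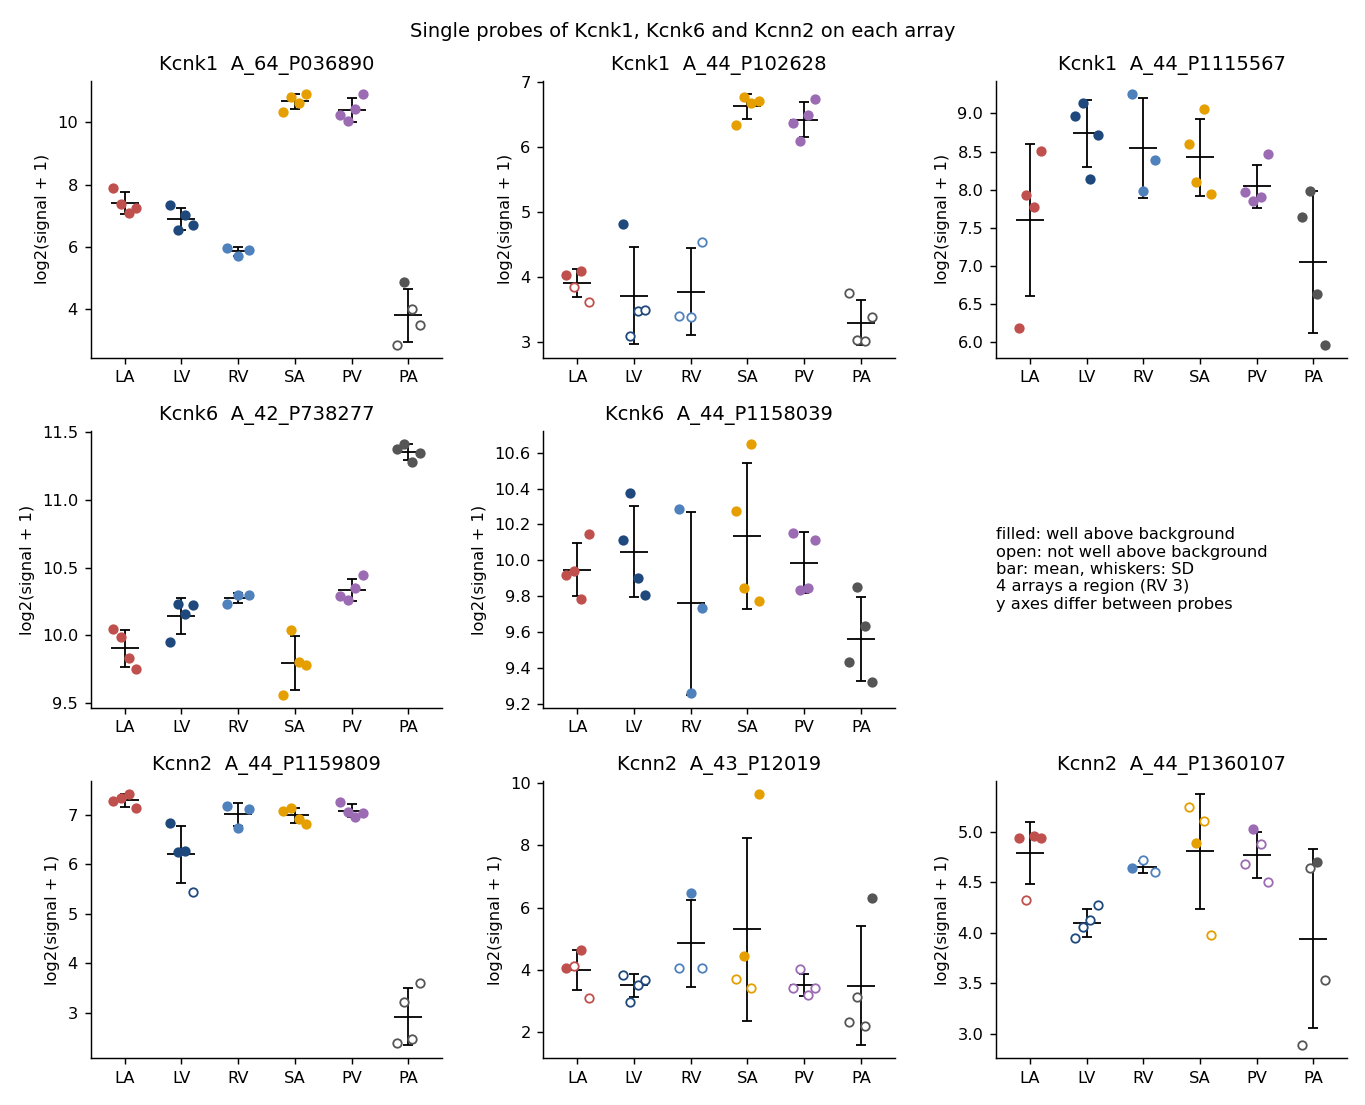
Log2(signal + 1) of each probe of Kcnk1, Kcnk6 and Kcnn2 (y axis, with its own range) is plotted on each array by region (x axis), with mean and SD, and open points where the probe was not well above background. Kcnk1 probes A_64_P036890 and A_44_P102628 are high in SA and PV, Kcnk6 probe A_42_P738277 stands out in PA while A_44_P1158039 does not, and Kcnn2 probe A_44_P1159809 has no filled point in PA.

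Kcnk6 (TWIK-2), a leak channel known from vessels, was higher in PA than in every other region. The PA arrays read 11.37, 11.42, 11.28 and 11.35, and the 19 arrays of the other regions read between 9.78 and 10.65. PA was above every other array, by 1.15 ± 0.10 over the mean of the 5 regions (2.21-fold, adjusted p = 3.37e-09). The highest probe was A_42_P738277 on all PA arrays and A_44_P1158039 on 6 arrays of LA, LV, RV and SA, so this difference also mixes levels of 2 probes. The difference was 1.22, 1.14 and 1.06 within slides 1, 2 and 3, and 1.18 and 1.14 within array rows 1 and 2. Among the 5 other regions the means ran from 10.00 in LA to 10.34 in PV, and none of the pairs was called. The supraventricular minus ventricular difference was -0.08 ± 0.09, with a 95% interval from -0.26 to 0.10.

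The rise in PA was seen on 1 of its 2 probes, both for NM_053806. On A_42_P738277 PA minus others was 1.26 ± 0.08 (adjusted p = 2.80e-11), and on A_44_P1158039 it was -0.42 ± 0.16 (adjusted p = 0.0410). The mean of both probes gave 0.42 (adjusted p = 0.000259). Probe A_42_P738277 was also lower in SA (9.56 to 10.04) than in PV (10.26 to 10.45), with no overlap and an adjusted p of 0.00936, beside 1.42% of all probes called between SA and PV. It was likewise lower in LA than in PV (adjusted p = 0.0103) and RV (0.0203), and in SA than in LV (0.0204) and RV (0.00441). Of all probes 7.46%, 17.6%, 17% and 13% were called in those pairs. That probe alone also passed the test between the supraventricular regions and the ventricles (-0.20 ± 0.07, adjusted p = 0.0336). The 7 smooth muscle markers (Myh11, Cnn1, Acta2, Tagln, Actg2, Smtn and Des) summed to 760607 to 894158 in PA and 63205 to 164718 elsewhere, and 6 of the 7, all but Des, had their highest mean in PA. The 5 fibroblast markers summed to 210940 to 248081 in PA and 61408 to 185849 elsewhere, with the highest mean in PA for 2 of the 5, Col1a1 and Lum. The part of these cells in the result was not tested.

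Kcnk3 (TASK-1) had the narrowest range of regional means of the 7 genes, 0.91. PA read 8.84, 8.98, 8.47 and 9.66, PV read 8.47, 8.02, 8.44 and 9.30, LA read 8.71, 8.23, 8.70 and 8.44, and SA read 8.88, 8.77, 8.51 and 7.85. LV read 8.77, 8.19, 8.20 and 8.13 and RV read 8.36, 7.82 and 8.06. All regions overlapped except RV and PA. The F-test over the 6 regions gave an adjusted p of 0.153. PA minus others was 0.59 ± 0.22 (1.51-fold, adjusted p = 0.0241), and the call was lost without PA replicate 2 (adjusted p = 0.0527) or PA replicate 4 (0.37, adjusted p = 0.177). Within the slides it was 1.19, 0.09 and 0.52, and within array rows 1 and 2 it was 0.24 and 1.05. RV minus PA was -0.91 ± 0.30 (adjusted p = 0.0148), a call lost without PA replicate 4 (-0.68, adjusted p = 0.0598) or RV replicate 2 (-0.78, adjusted p = 0.0664). LV minus PA was -0.67 ± 0.28 (adjusted p = 0.0487), and this call was lost in 17 of the 23 fits that left out 1 array. The same-numbered LV and PA arrays lay on the same slide and row, and the call was also lost with the replicate number (adjusted p = 0.0538), the slide (adjusted p = 0.0572) or the array row (adjusted p = 0.0553) as a block, after quantile normalization (0.0527) or normexp (0.0603), without the filter on dim genes (0.0502) and when LV and PA alone were fitted (0.0630). Supraventricular minus ventricular was 0.33 ± 0.19 (adjusted p = 0.183), with a 95% interval from -0.07 to 0.72.

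The 2 probes of Kcnk3, both for NM_033376, gave like values in both comparisons. Probe A_42_P671477, the highest on all arrays, gave 0.33 and 0.59, and probe A_43_P15330 gave 0.41 ± 0.16 (adjusted p = 0.0649) and 0.48 ± 0.19 (adjusted p = 0.0414). On the second probe the F-test over the 6 regions passed (adjusted p = 0.0479), beside 51.9% of all probes.

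Kcnn3 (SK3) was the gene that was higher in the ventricles. LV read 9.37, 9.53, 9.54 and 9.48 and RV read 9.68, 8.96 and 9.41. LA read 8.60, 8.66, 8.72 and 8.71, SA read 8.68, 8.62, 8.60 and 8.24, and PV read 8.67, 8.45, 8.82 and 8.65. Every ventricular array was above every array of LA, SA and PV. The supraventricular minus ventricular difference was -0.80 ± 0.11 (1.74-fold, adjusted p = 7.43e-06). Within slides it was -0.84, -0.92 and -0.72, and within array rows -0.92 and -0.61. LA minus LV was -0.81 ± 0.16 (adjusted p = 0.000593). LV and RV differed by 0.13 ± 0.17, with a 95% interval from -0.23 to 0.50.

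In PA, Kcnn3 read 9.20, 9.56, 9.13 and 8.66, a mean of 9.14 that lay between those of the ventricles and of the supraventricular regions. LA minus PA was -0.46 ± 0.16 (adjusted p = 0.0211, lost without PA replicate 2 at 0.0998), and LV minus PA was 0.35 ± 0.16 (adjusted p = 0.0784). PA minus the 5 other regions was 0.20 ± 0.13 and did not pass the test (adjusted p = 0.192), but did without PA replicate 4 (0.36, adjusted p = 0.0166). Of the marker lists, that of endothelium (Pecam1, Cdh5, Kdr, Tek and Vwf) had a higher sum in the ventricles, at 66461 to 81739 against 36466 to 50146 in LA, SA and PV, with higher means in both ventricles for 3 of the 5 (Cdh5, Kdr and Vwf). The sum of ventricular myocyte markers was 783906 to 1044020 against 27686 to 103939, with 5 of 6 higher in both ventricles (all but Hey2). The 4 macrophage markers (3180 to 4233 against 1913 to 3003) and the 3 lymphocyte markers on the array (676 to 987 against 103 to 362) also had higher sums in the ventricles, with higher means in both for 3 of the 4 (all but Cd163) and for 1 of the 3 (Cd3g). The 4 lung epithelium markers, all with higher means in both ventricles, summed to 363.6 to 901.2 there against 134.5 to 379.7. In PA, where Kcnn3 was at 8.66 to 9.56, the endothelial sum was 26380 to 50836, the ventricular myocyte sum 1471 to 16927, the macrophage sum 2700 to 3105, the lymphocyte sum 69.4 to 302.8 and the lung epithelium sum 329.4 to 457.2. The part of these cells was not tested. Kcnn3 has 1 probe, A_64_P057594 for NM_019315, well above background on all 23 arrays.

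Kcnn2 (SK2), the SK channel most often linked to atrial myocytes, was lower in PA than in the other regions. The signals of the highest probe were 7.26, 7.33, 7.42 and 7.13 in LA, 7.26, 7.05, 6.96 and 7.03 in PV, 7.17, 6.73 and 7.11 in RV and 6.84, 6.24, 6.28 and 5.44 in LV. SA read 7.08, 7.13, 6.91 and 9.66 and PA read 2.89, 4.64, 4.70 and 6.31. All LA arrays were above all LV arrays, 1 SA array was above every other array, and PA replicate 4 overlapped with LV. PA minus others was -2.42 ± 0.45 (adjusted p = 9.10e-05). This sets different probes against each other, since probe A_44_P1159809 was the highest on 18 of the 19 arrays outside PA and on none in PA. With the 2 PA arrays and the LV array on which no probe was well above background set to the lowest signal that is, it was -1.93. Within slides it was -0.47, -2.74 and -3.16, and slide 1 held PA replicate 4. Within array rows 1 and 2 it was -3.24 and -1.50, and after normexp it was -0.96. The part of cell composition in the Kcnn2 result was not tested. The supraventricular minus ventricular difference was 0.75 ± 0.39 (adjusted p = 0.136), and LA minus LV was 1.09 ± 0.57 (adjusted p = 0.161). Both SEs take in the spread of SA and PA (SD 1.31 and 1.40), where the highest probe changed between arrays.

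The 3 probes of Kcnn2, all for NM_019314, differed. Probe A_44_P1159809 was the highest on 18 arrays and well above background on 18. It read 7.13 to 7.42 in LA, 6.96 to 7.26 in PV, 6.82 to 7.13 in SA, 6.73 to 7.17 in RV, 5.44 to 6.84 in LV and 2.41 to 3.60 in PA. It was well above background on no PA array, so that LA was at least 5.60-fold, PV at least 4.84-fold, RV at least 4.61-fold, SA at least 4.55-fold and LV at least 2.64-fold above PA, where 3 of the 4 LV arrays measured it. PA minus others was called on this probe (adjusted p = 8.58e-13). No PA signal was measured above background, so the fitted value given further below is not a measured size. Supraventricular minus ventricular was 0.51 ± 0.17 (adjusted p = 0.0282). LA minus LV was called on this probe (1.09 ± 0.25, adjusted p = 0.00322). So were LV minus SA (-0.79 ± 0.25, adjusted p = 0.0368) and LV minus PV (-0.88 ± 0.25, adjusted p = 0.0167). Of all probes 23.7%, 17% and 21.8% were called in these pairs. Probe A_43_P12019 was well above background on 6 of 23 arrays. Its signal on SA replicate 4 was 9.66 (806 on the linear scale), against 3.41 to 4.45 on the other SA arrays, and it read 6.31 on PA replicate 4 and 6.45 on RV replicate 2. The high SA array and the high PA array at gene level came from this probe. LV minus PA was 1.56 ± 0.57 at gene level (adjusted p = 0.0259). Within slides 1, 2 and 3 it was -0.87, 1.58 and 2.77. The call was lost without LV replicate 1 (adjusted p = 0.0790) or PA replicate 1 (0.98, adjusted p = 0.126). It was also lost after normexp (0.52, adjusted p = 0.163), with pseudocount 16 (1.05, adjusted p = 0.0550) and when LV and PA alone were fitted (adjusted p = 0.0807). Within array rows 1 and 2 the difference was 2.76 and 0.36. Neither the F-test nor the 2 comparisons passed on probe A_43_P12019. On probe A_44_P1360107 only PA minus others passed (adjusted p = 0.0303). That probe was well above background on 7 arrays, with 1 of 4 in PA and none in LV, so no size is given.

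Kcnn1 (SK1) was lowest in PA and next lowest in LA. PA read 5.99, 6.23, 5.84 and 5.90 and LA read 6.0, 6.41, 6.55 and 6.82. LV read 7.10, 6.72, 6.46 and 6.59, RV read 7.03, 7.13 and 6.92, SA read 6.89, 6.86, 7.29 and 7.38, and PV read 6.95, 6.76, 7.14 and 7.33. The PA arrays lay below all arrays of LV, RV, SA and PV and overlapped with LA. PA minus others was -0.88 ± 0.14 (1.84-fold, adjusted p = 1.22e-05), and within slides it was -0.82, -1.06 and -0.91, and within array rows -0.86 and -0.84. After normexp it was -0.46. The part of cell composition in the Kcnn1 result was not tested. LA minus SA was -0.66 ± 0.18 (adjusted p = 0.0147), LA minus PV was -0.60 ± 0.18 (adjusted p = 0.0281) and LA minus RV was -0.58 ± 0.19 (adjusted p = 0.0282). These 3 calls were lost without LA replicate 1, the lowest LA array (adjusted p = 0.0619, 0.105 and 0.101), and when only the arrays of each pair were fitted (adjusted p = 0.0732, 0.112 and 0.0834). They were also lost without SA replicate 3 (0.0510) or 4 (0.0540) for SA, without LA replicate 2 (0.0638) or PV replicate 3 (0.0711) or 4 (0.104) for PV, and without LA replicate 2 (0.0567) or RV replicate 1 (0.0692) or 2 (0.0939) for RV. Within array rows 1 and 2, LA minus SA was -0.40 and -0.78 and LA minus PV was -0.30 and -0.73, none of them called, and the LA minus PV call was lost with the row as a block (adjusted p = 0.0688). The supraventricular minus ventricular difference was -0.01 ± 0.12, a value whose sign changed under 3 of 4 other scalings or background corrections, with a 95% interval from -0.26 to 0.24. Its 1 probe, A_64_P057587 for NM_019313, was well above background on all arrays.

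Region specificity was also measured with the SPM value of the study's methods, which is a regional mean over the root of the summed squares of the LA, V (LV and RV together) and SA means, on 15 arrays. A gene was specific to a region where its SPM exceeded 0.614, the 95th percentile after permutation of labels, and its F-test passed. Of the 7 genes 1 was region-specific, Kcnk1, for SA (0.670, adjusted p = 8.13e-06), beside 10.6% of 15809 genes. PV does not enter this measure, and the Kcnk1 mean there was 10.4 against 10.7 in SA. Its highest probe in SA was also not the one on most LA arrays and all V arrays. Just below the threshold were Kcnk2 with 0.612 for SA and 0.606 for LA, and Kcnn3 with 0.612 for V. Kcnn2 had an SPM of 0.618 for SA with a failed F-test (adjusted p = 0.129). Over the alternatives tried, the count of region-specific genes ran from 1 to 4.

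A list of 41 related genes was set beside the 7, and 39 of them were on the array and tested. Of these, 26 of 39 differed among the 6 regions, beside 64.4% of all genes. Between the supraventricular regions and the ventricles 14 were higher and 7 lower, beside 18.6% and 22.3% of all genes, with a median difference of 0.01. In PA 15 were higher and 10 lower, beside 31.4% and 27.7%, with a median of 0.15. These calls kept their direction under the 4 other scalings and background corrections (21 of 21 and 25 of 25), and of these calls 19 and 24 still passed after quantile normalization and 19 and 23 after normexp. Among the 4, scaling the scanner signals to the 90th percentile nearly repeated the authors' own scaling, so its agreement adds little. Among 9 other K2P channels 2 differed, named here after their values were seen, Kcnk13 (lower in the supraventricular regions by a difference of -0.96 ± 0.12) and Kcnk15 (1.71 ± 0.40, but well above background on 7 of 23 arrays). Among 8 calcium- or sodium-activated channels and their beta subunits 5 differed, among 10 partners of SK channels 9, and among 12 partners of K2P channels 10.

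The widest ranges of regional means in this list were those of genes that separate PA from heart muscle. Actn2, the sarcomeric alpha-actinin that binds SK2, ranged over 6.56 and was lower in PA by a difference of -6.45 ± 0.11. Flna, the actin cross-linker filamin A, ranged over 5.95 and was higher in PA (5.10 ± 0.16). Kcnmb1, the smooth muscle beta subunit of the large-conductance calcium-activated channel, was higher in PA by 5.12 ± 0.17, with a mean of 11.79 against 5.87 to 7.84 in the other regions. Sptbn4, the spectrin βIV that links TREK-1 to the cytoskeleton, was higher in PA by 2.53 ± 0.11, and S100a10, the annexin A2 partner p11 that binds TASK-1, by 1.99 ± 0.10.

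Calm3, 1 of the calmodulin genes, was lower in PA (-1.81 ± 0.08) and in the supraventricular regions (-0.59 ± 0.07). Kcnt1, a sodium-activated potassium channel, had a mean of 8.24 in SA, 7.76 in PV and 7.59 in PA, and 5.70 to 6.10 in LA, LV and RV. Its supraventricular minus ventricular difference was 1.26 ± 0.17 (adjusted p = 4.18e-06), and its means in SA and PV, like those of Kcnk1, lay above that in LA. Kcnmb2, a beta subunit that inactivates the large-conductance channel, was lower in PA (-1.64 ± 0.15).

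**Figure D4:**
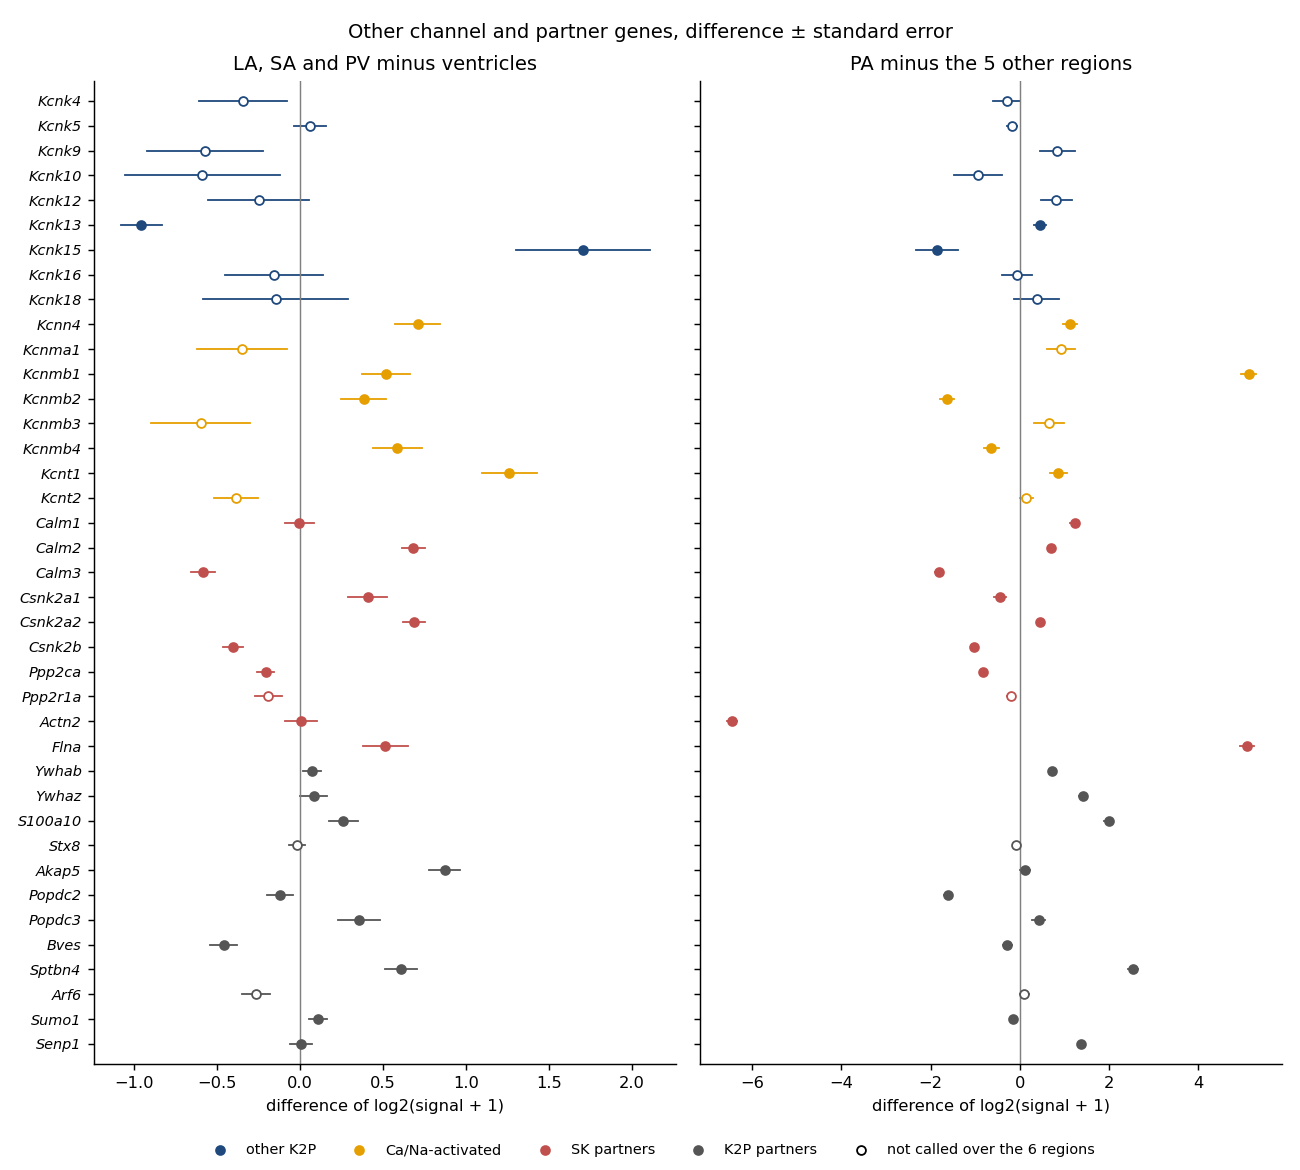
The difference of log2(signal + 1) with its standard error (x axis) is plotted for 39 related genes (y axis), supraventricular regions minus ventricles on the left and PA minus the 5 other regions on the right, colored by list, with open points for genes not called over the 6 regions. Actn2 lies far to the left in PA (-6.45) and Kcnmb1 and Flna far to the right (5.12 and 5.10).

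For each gene, the genes most like it over the 23 arrays were found by Pearson's correlation of log2 signals, among 11432 to 11824 genes detected above background throughout its highest region. These arrays share regions, slides and scaling, so the correlations are descriptions. Kcnk2 was most like Igsf1 (r = 0.995), Chrm2, the muscarinic M2 receptor (0.989), and Kcnj5, a subunit of the acetylcholine-activated potassium channel (0.989). Kcnk6 was most like Tbxa2r, the thromboxane A2 receptor (0.949), Pfn1, the actin-binding profilin (0.942), and Fgf2 (0.941). Kcnk1 was most like Cyfip2 (0.914), Dusp15 (0.913) and Ckb, the brain-type creatine kinase (0.908). For Kcnn1 these were Banf1 (0.904), Map2k2 (0.896) and Mrpl18 (0.882), and for Kcnn3 Cyp51 (0.893), Zbtb7b (0.883) and Aprt (0.881). Kcnn2 was most like Nprl2 (0.865), Tafazzin (0.852) and Mrgbp (0.846), and Kcnk3 most like Aars1 (0.822), Axin2 (0.729) and Ccdc65 (0.720).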

How the data were processed

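Total RNA of 23 samples was labelled with Cy3 and hybridised to 1-colour Agilent rat gene expression arrays, scanned with Agilent Feature Extraction 11.0.1.1 (submitters' processing notes). The deposited normalized intensity is linear: the authors scaled the background-subtracted processed signal of each array by 1 factor to a common 90th percentile (the factors found were 0.881 to 1.52, and 99.6% to 99.8% of probes lay within 2% of that product). The scanner intensity values and detection marks that the authors deposited served for the alternatives. No genome build enters these values.

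Of 45596 probes, 45440 had a value on every array and 21047 were named through their RefSeq accession, giving 16544 genes. The highest probe per gene and array was taken as log2(signal + 1), and genes above 4 on at least 1 array were kept. One model of 6 region means was fitted with limma 3.58.1 in R 4.3.3, without a block, with Benjamini-Hochberg adjustment over all genes in each comparison. Single probes were fitted the same way. The number of arrays limits the precision. The methods' analysis of variance served as an alternative, as did other scalings, background correction (normexp with offset 50 on median signals), filters, probe rules, pseudocount 16, blocks, and leaving out each array. The code was tested on simulated data.

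The named genes were the 7 channel genes, of the related genes up to 8 with the widest range of regional means among those called and well above background in their highest region, and for each channel gene the 3 most correlated. Kcnk13 and Kcnk15 are named outside this rule, after their values were seen. Members and lists were chosen with earlier results of these data known. The list of mesothelium markers is in the closing section. Some marker lists are not reported here.

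By the correlations of deviations, the replicate numbers of the labels paired LV with PA (0.13 to 0.34) but no other pair of regions. Same-numbered LV and PA arrays lay on the same slide and row. So did same-numbered SA and PV arrays, with correlations of -0.15 to 0.29.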

Additional observations from a re-analysis of the deposited data

Results flagged for a closer look

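In groups of 4 arrays, a single array stood apart where its gap to the nearest array exceeded the 95% critical share of the range of the group (Dixon's test, which chance passes in about 1 of 20 groups). This was so in 7 of 105 groups tested over genes and probes, and in 2 of 35 at the level of genes. Kcnn2 in SA was one (0.919), because SA replicate 4 read 9.66 against 6.91 to 7.13, and its probe A_43_P12019 in SA was another (0.834). Kcnk3 in LV stood apart by LV replicate 1 (0.881, 8.77 against 8.13 to 8.20), and so did its probe A_42_P671477, which gave those values (0.881). Probe A_64_P114986 of Kcnk2 was high on the same array (0.970, 6.39 against 5.90 to 5.92). Probe A_43_P15330 of Kcnk3 was low on PA replicate 3 (0.866, 7.16 against 7.91 to 8.03). Probe A_44_P1360107 of Kcnn2 was low and not well above background on LA replicate 2 (0.978, 4.33 against 4.94 to 4.95).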

How the results depend on the processing

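Over 47 alternatives, 23 of them leaving out 1 array, the 31 differences followed gave 1329 values, of which 1186 kept direction and side of the threshold, 118 lost the call, 6 gained it and 19 changed sign. Some could hardly change. Scaling the scanner signals to the 90th percentile nearly repeated the authors' scaling. Fitting only the arrays compared left PA minus the others as it was, since that comparison uses all arrays. Genes called over the 6 regions stayed at 6, those called in PA at 5 to 6, calls over pairs at 43 to 60 and calls among related genes at 25 to 28. The genes called between supraventricular regions and ventricles were 5 with the probe of highest mean (Kcnk6, -0.20, and Kcnn2, 0.51, joined). The region-specific genes were 4 after normexp, 4 when dim genes were removed by their detection marks, 3 with pseudocount 16, 3 with SPM from linear signals, 2 with the mean of all probes, 2 with the slide as a block, 2 with LV alone as V, and 1 to 2 when 1 array was left out (2 without RV replicate 1 or without RV replicate 2). With the probe of highest mean, Kcnk1 differed by 3.11 between supraventricular regions and ventricles and by -4.44 in PA, and Kcnn2 by -3.98 in PA, where the Kcnk1 probe was detected above background on 1 array and the Kcnn2 probe on 0, so that both PA values are fitted and not measured sizes. After normexp, Kcnn1 differed by -0.46 and Kcnn2 by -0.96 in PA.

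Sign changes were few outside values near 0. Kcnn1 between supraventricular regions and ventricles was 0.027 with the 75th percentile, 0.093 after quantile normalization, 0.0062 after normexp, 0.062 with the slide as a block, 0.17, 0.21 and 0.17 within slides 1, 2 and 3, 0.019 within array row 2, and -0.049 to 0.058 when 1 array was left out. Kcnk6 in that comparison was 0.11 within slide 3. Within slide 1, which held 1 PA array, Kcnn3 in PA was -0.20, Kcnn2 in LV minus PA was -0.87 and Kcnn3 in LA minus PA was 0.067. Within single slides or rows, where fewer arrays were fitted, calls for Kcnk1, Kcnk2, Kcnk3, Kcnn2 and Kcnn3, among others, were lost in some cases with the direction kept but for the values given. The cause of the other changes was not tested.

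With the replicate number as a block, the counts were 6, 3, 6, 50, 1 and 26, in the order regions, supraventricular, PA, pairs, region-specific and related genes, and of the 31 differences followed Kcnk3 in LV minus PA lost its call (adjusted p = 0.0538). Over 55 pairs of same-numbered arrays the correlation of deviations ran from -0.38 to 0.34, with 12 over 0.1. For LV and PA, whose same-numbered arrays share slide and row, all 4 were over 0.1 (0.13 to 0.34), and for none of the other 14 pairs of regions were all over 0.1. Same-numbered SA and PV arrays also share slide and row, and their correlations were -0.15 to 0.29.

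Signals not well above background (Kcnk2 and Kcnn2 in PA) limit those folds. Scalings moved the median of all genes by under 0.1.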

Other observations

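The 3 mesothelium markers on the array, led by Msln, summed to 16053 to 20230 in LA and to 792 to 8750 on the arrays of all other regions. Msln and Lrrn4 had their highest mean in LA. Wt1 did not, with mean log2 signals of 8.92 in LA and 9.02 in LV, and its RV mean was also above that in LA.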
